A study of Mus musculus with 23 samples.

Results

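Enteroendocrine hormone genes are described here through 10 genes of 22517 named genes in the deposited tables: Gcg, Cck, Sct, Gip, Sst, Ghrl, Nts, Pyy, Tac1 and Tph1. They were chosen by name, 9 as precursors of gut peptide hormones and Tph1 as the enzyme of serotonin synthesis. Each was found once in both tables, alone in its locus entry, and was tested by the authors in both comparisons. RNA was sequenced from 3 groups of adult mice on a mixed B6;129 background, with 3 libraries in each, all taken from the proximal part of the intestine. Intestinal stem cells (ISC) came from Eed+/+ mice with Lgr5-EGFP-IRES-CREERT2, a knock-in that puts GFP and an inducible Cre under the Lgr5 gene. Wild-type villus came from EedF/F; Cre- mice, whose Eed alleles are floxed but not recombined. Eed-null villus came from EedF/F; Villin-CRE mice, in which the Villin promoter drives Cre in the whole gut epithelium, enteroendocrine cells included. Mice of all 3 groups had received 1 to 2 mg tamoxifen on 5 days. Cre is thus present in Eed-null villus and ISC and absent in wild-type villus, and its presence cannot be told apart from Eed loss.

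Enteroendocrine cells are rare hormone-releasing cells scattered among the absorptive cells of the gut lining. They arise in the crypt from the same Lgr5-positive stem cells as all other lineages, under the transcription factor Neurog3, and sense nutrients in the lumen. Their prohormones are stored in dense granules together with chromogranins, cut by prohormone convertases and released into blood or onto nearby nerves. Single cells are known to change the hormones they make while they move from crypt to villus, and the hormones also differ along the gut, with Gip made mostly in the upper small intestine and Gcg, Pyy and Nts mostly further down. Eed belongs to the core of PRC2, the Polycomb complex that methylates histone H3 at K27 and thereby keeps genes silent.

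Each table holds 1 RPKM value per group and gene, that is, reads scaled by gene length and by mapped reads, so neither the variation among the 3 libraries nor their depth can be read from it. The wild-type villus values of the first table are 1.16193 times those of the second, so the tables were normalized separately and every test stays within a table. Throughout, called means a listed q of 0.05 or less. As a measure of error, the standard error (SE) of a log2 ratio was worked back from the authors' p on the assumption of a normal test, and intervals are 95% intervals from that SE. Eed itself stood at 9.17 RPKM in wild-type and 3.00 RPKM in Eed-null villus (q = 6.29e-06, authors' deposited table). The stem cell markers Olfm4 and Lgr5 were at 2939 and 18.3 RPKM in ISC and at 110 and 0.607 RPKM in villus, whereas the enterocyte gene Sis was at 15.9 RPKM in ISC against 1310 RPKM in villus. In these bulk libraries fewer cells of a type and less RNA per cell cannot be told apart.

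The promoters of the 5 hormone genes that the results turn on are shown first: those called between Eed-null and wild-type villus (Gcg, Gip, Sst and Tac1) and the one with the largest ratio between villus and ISC (Nts). Each line gives the 250 bases before the transcription start in RefSeq on build GRCm38.p6, read 5′ to 3′ on the strand of the gene. Capitals mark matches on either strand to any of 4 motifs. The first is the cyclic AMP response element, spelled TGACGTCA. The others are the TATA box, searched as TATAAA, the core motif of the GATA factor family, searched as GATAA, and the homeodomain core motif, searched as TAATTA. Overlapping matches were allowed.
Gcg: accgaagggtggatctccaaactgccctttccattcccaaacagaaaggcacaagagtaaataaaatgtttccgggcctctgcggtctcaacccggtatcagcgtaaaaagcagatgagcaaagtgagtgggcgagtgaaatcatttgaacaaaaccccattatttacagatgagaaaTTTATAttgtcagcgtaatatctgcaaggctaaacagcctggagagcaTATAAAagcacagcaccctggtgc
Gip: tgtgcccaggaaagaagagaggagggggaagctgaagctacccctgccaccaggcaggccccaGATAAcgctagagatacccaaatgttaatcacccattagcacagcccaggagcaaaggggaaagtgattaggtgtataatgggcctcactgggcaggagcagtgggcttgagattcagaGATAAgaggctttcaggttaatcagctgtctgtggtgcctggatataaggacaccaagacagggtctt
Sst: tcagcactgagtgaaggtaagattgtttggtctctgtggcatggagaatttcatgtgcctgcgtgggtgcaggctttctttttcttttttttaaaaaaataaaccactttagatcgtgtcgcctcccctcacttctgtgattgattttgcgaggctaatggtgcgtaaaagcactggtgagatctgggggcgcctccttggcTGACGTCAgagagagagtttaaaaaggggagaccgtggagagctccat
Tac1: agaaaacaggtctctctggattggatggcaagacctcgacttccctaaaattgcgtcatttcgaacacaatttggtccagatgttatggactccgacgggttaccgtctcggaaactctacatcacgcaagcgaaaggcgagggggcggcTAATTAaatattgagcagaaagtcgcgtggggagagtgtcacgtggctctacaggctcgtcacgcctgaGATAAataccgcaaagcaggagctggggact
Nts: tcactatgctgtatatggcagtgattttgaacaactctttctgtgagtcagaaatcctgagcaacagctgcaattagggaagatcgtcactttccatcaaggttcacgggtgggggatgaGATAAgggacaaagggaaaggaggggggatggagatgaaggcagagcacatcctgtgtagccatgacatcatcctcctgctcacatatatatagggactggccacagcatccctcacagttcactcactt
These windows lie at chr2:62483654-62483903 (minus strand) for Gcg, chr11:96024295-96024544 (plus strand) for Gip, chr16:23890845-23891094 (minus strand) for Sst, chr6:7554811-7555060 (plus strand) for Tac1 and chr10:102490419-102490668 (minus strand) for Nts. Sst carries the single complete TGACGTCA among the hormone genes, from base 48 to base 41 before the start. That motif is found in 1.55% of the 32851 RefSeq windows of this length. Gcg holds TATAAA at base 24, and on the other strand at base 72, before the start. Sct is the other hormone gene with this motif, which is found in 12.4% of windows. Gip holds GATAA at bases 187 and 68 before the start, Nts at base 130 and Tac1 at base 31, and Cck has a match at base 188. GATAA occurs in 22.6% of windows, and TAATTA, which Tac1 and one of the Tph1 windows hold, in 4.84%. The 6 base E-box CANNTG, bound by factors of the Neurog3 type, was matched in 9 of the 10 genes and in 66.2% of windows.

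On mm9, the build of the deposited tables, the locus entries are chr2:62312586-62321710 for Gcg, chr9:121398941-121404807 for Cck, chr7:148464236-148465030 for Sct, chr11:95885858-95892142 for Gip, chr16:23889666-23890930 for Sst, chr6:113666112-113669874 for Ghrl, chr10:101944389-101953052 for Nts, chr11:101967990-101969090 for Pyy, chr6:7505070-7512973 for Tac1 and chr7:53902500-53927907 for Tph1. Gip and Pyy share chromosome 11, Ghrl and Tac1 chromosome 6, and Sct and Tph1 chromosome 7.

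The promoters also differ in CpG content. Tac1 had 17 CpG dinucleotides in its 250 bases, 1.05 times the number its base composition would give, and Sct had 22 (0.765 times). Gip had 1 CpG (0.0613 times) and Nts 2 (0.140 times), whereas Gcg and Sst had 7 and 8. The median of all windows was 6. Of the 4 genes that differed on Eed loss, Tac1 therefore lies above the upper quartile of windows (16 CpG), Gip below the lower quartile (2 CpG), and Gcg and Sst near the median. Ghrl, Pyy and Tph1 have several annotated starts, and the windows of Tph1 held 5 and 19 CpG.

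Villus and ISC held the hormone transcripts in different proportions. Of the 10 genes, 5 were higher in villus (Nts, Pyy, Sct, Gip and Sst), 2 were higher in ISC (Tac1 and Gcg) and 3 were not called (Cck, Ghrl and Tph1). Among the 13007 genes tested by the authors, 30.5% were called with the higher value in villus and 32.3% with the higher value in ISC, 62.8% in either direction, so the share called among the hormone genes is close to that of all genes, and the pattern lies in which gene went which way. The median log2 ratio of the 10 genes, villus over ISC, was 0.92, beside -0.10 for all tested genes above 0 in both groups. Only ISC were dissociated enzymatically, for 45 minutes, and sorted for high GFP, whereas the villus epithelium was frozen after EDTA release, and this handling cannot be told apart from cell type.

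**Figure D1:**
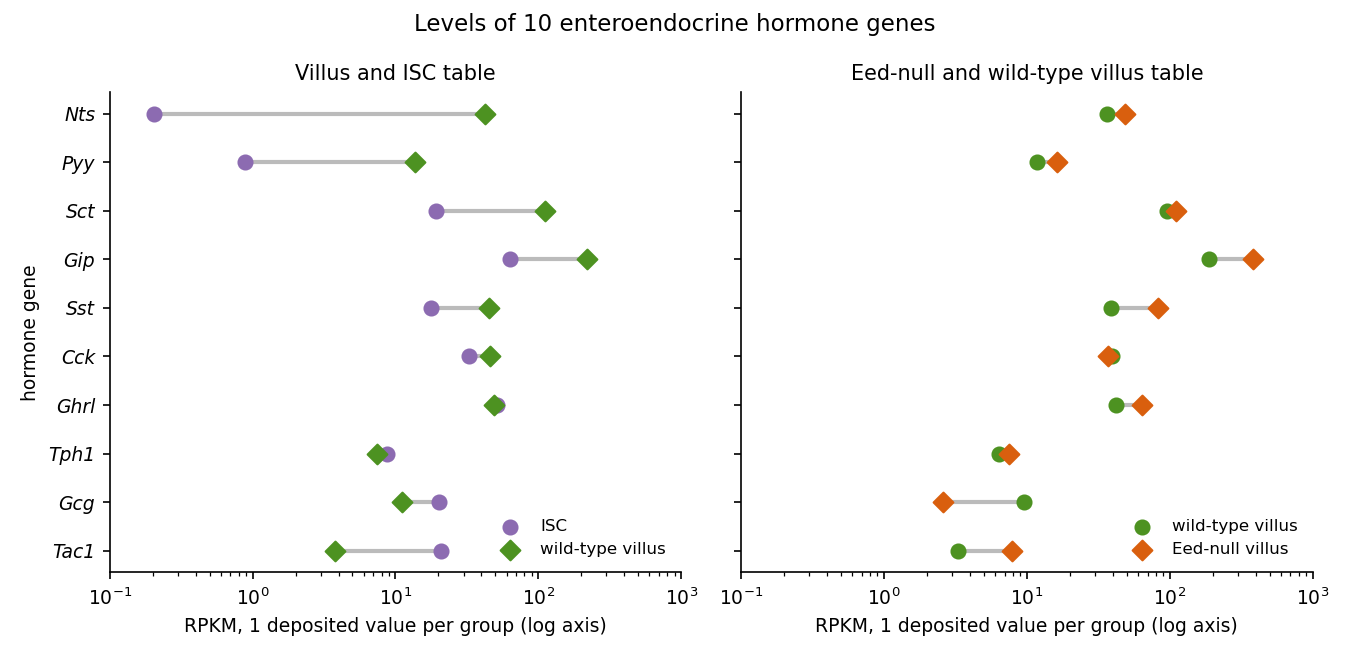
Deposited RPKM (log axis) of the 10 hormone genes, with 1 point per group: ISC and wild-type villus on the left, wild-type and Eed-null villus on the right, each pair within its own table. Nts and Pyy are the 2 genes below 1 RPKM in ISC, and Gcg is the one called lower in Eed-null villus.

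Nts, which encodes neurotensin and neuromedin N, was at 0.205 RPKM in ISC against 42.2 RPKM in villus. Its log2 ratio was 7.69, with q listed as 0 in the authors' deposited table, and was 5.16 when 1 RPKM was added to both groups. Pyy, the satiety peptide of L cells, was at 0.885 RPKM in ISC against 13.7 RPKM in villus, a 15.5-fold ratio (95% interval 6.16 to 39.0) with q = 2.5e-08 in the authors' deposited table. Both lay below 1 RPKM in the sorted stem cells only. Sct, the duodenal hormone that stimulates pancreatic bicarbonate, stood at 19.2 RPKM in ISC against 111 RPKM in villus, a 5.80-fold ratio (3.72 to 9.04; q = 7.09e-14 in the authors' deposited table). Gip, the incretin of K cells, had 63.5 RPKM in ISC against 219 RPKM in villus, a 3.45-fold ratio (2.50 to 4.76; q = 3.61e-13 in the authors' deposited table). Sst, the somatostatin of D cells, which inhibits the release of other hormones, had 17.7 RPKM in ISC against 44.9 RPKM in villus, a 2.54-fold ratio (1.63 to 3.96; q = 9.33e-05 in the authors' deposited table).

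Tac1 and Gcg went the other way. Tac1, the precursor of substance P and neurokinin A, made by serotonin-releasing enterochromaffin cells and by enteric neurons, had 20.9 RPKM in ISC against 3.80 RPKM in villus. It was 5.50-fold higher in ISC, with a log2 ratio, villus over ISC, of -2.46 (SE 0.34) and q = 5.08e-12 in the authors' deposited table. Gcg, which encodes proglucagon, the source of GLP-1 and GLP-2 in L cells, had 20.3 RPKM in ISC against 11.1 RPKM in villus. It was 1.83-fold higher in ISC (log2 ratio -0.87, SE 0.29; q = 0.00494 in the authors' deposited table), and this call would be lost if a 2-fold difference were required. Thus Gcg and Pyy, both products of L cells, differed in opposite directions: the Pyy level was 0.0437 times that of Gcg in ISC and 1.24 times in villus.

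For 3 hormone genes no difference between villus and ISC was called. Their intervals rest on the authors' variance model under the assumed normal test, not on measured spread. Ghrl, the precursor of the appetite hormone ghrelin, had 51.1 RPKM in ISC against 49.0 RPKM in villus, a ratio of 0.958 (0.659 to 1.39; q = 0.861 in the authors' deposited table). Tph1, which catalyses the rate-limiting step of serotonin synthesis outside the brain, had 8.72 and 7.41 RPKM, a ratio of 0.850 (0.571 to 1.27; q = 0.502 in the authors' deposited table). Cck, the hormone of I cells that contracts the gall bladder, had 32.7 and 45.7 RPKM, a ratio of 1.40 (0.971 to 2.01; q = 0.105 in the authors' deposited table).

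**Figure D2:**
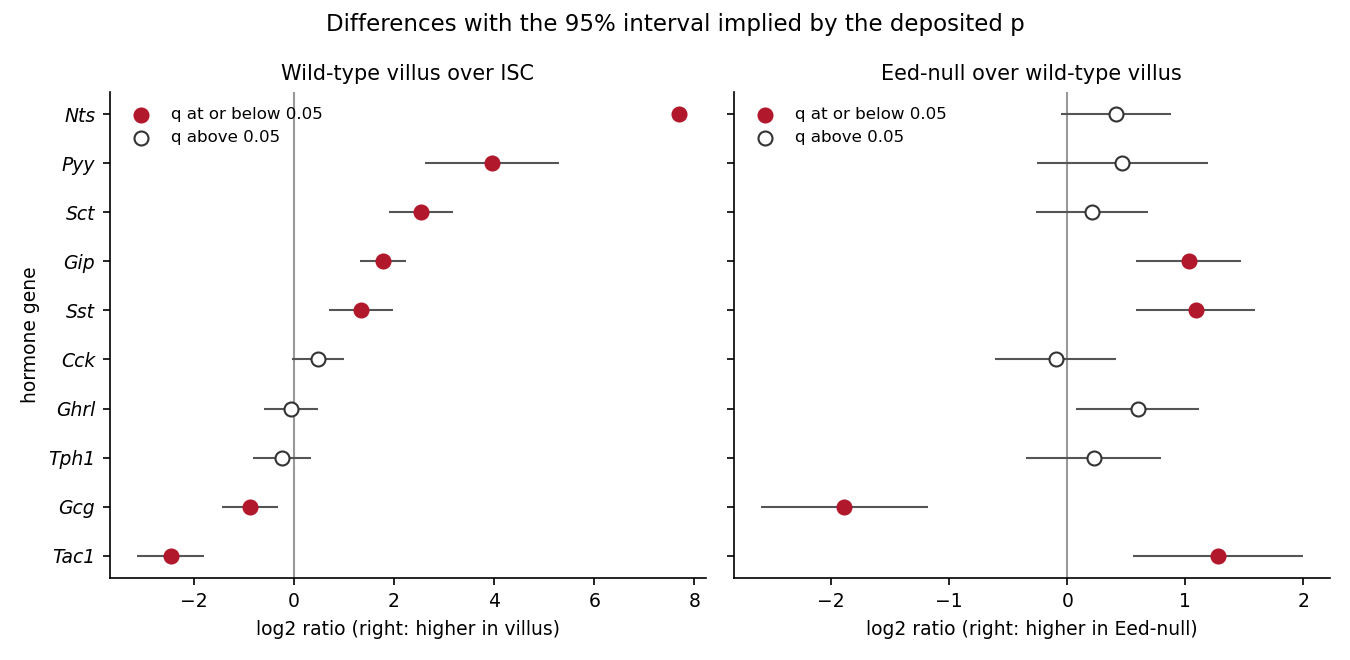
Log2 ratio of each hormone gene in both comparisons, with the 95% interval implied by the authors' p (bars) and filled points where q was at or below 0.05. In the left panel Nts (7.69) has no bar because its p is listed as 0, and in the right panel Gcg (-1.89) lies left of 0 while Tac1 (1.28), Sst (1.09) and Gip (1.03) lie right of it.

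Eed-null villus had less Gcg and more of 3 other hormone transcripts than wild-type villus. Of the 10 genes, Gip, Sst and Tac1 were called higher in Eed-null villus, Gcg lower, and 6 were not called. Among the 12525 genes tested in this table, 7.9% were called higher and 3.46% lower, 11.4% in either direction. The median log2 ratio of the 10 genes, Eed-null over wild-type villus, was 0.44, beside -0.08 for all tested genes above 0 in both groups, and 8 of the 10 had the higher value in Eed-null villus.

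Gcg was at 9.53 RPKM in wild-type and 2.58 RPKM in Eed-null villus. It was 3.70-fold lower, with a log2 ratio of -1.89 (SE 0.36) and q = 7.06e-06 in the authors' deposited table, and it is the sole hormone gene called lower. Gip rose 2.04-fold, from 188 to 384 RPKM (1.49 to 2.78; q = 0.000176 in the authors' deposited table). Sst rose 2.12-fold, from 38.7 to 82.2 RPKM (1.501 to 3.01; q = 0.000469 in the authors' deposited table). Tac1, a minor transcript in villus, rose 2.42-fold, from 3.27 to 7.92 RPKM (1.47 to 3.98; q = 0.00666 in the authors' deposited table). The level of Gip over that of Gcg was 3.14 in ISC, 19.8 in wild-type villus and 149 in Eed-null villus.

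The other 6 genes were not called between the villus groups. Ghrl had 42.1 RPKM in wild-type and 63.8 RPKM in Eed-null villus, a ratio of 1.51 (1.05 to 2.17), with p = 0.0245 before adjustment and q = 0.148 in the authors' deposited table. Nts had 36.3 and 48.5 RPKM (ratio 1.33, 0.965 to 1.84; q = 0.324 in the authors' deposited table), and Pyy 11.8 and 16.3 RPKM (ratio 1.38, 0.836 to 2.28; q = 0.544 in the authors' deposited table). The intervals of Pyy and Nts lie above that of Gcg (ratio 0.270, 0.165 to 0.442), although all 3 are hormones of the lower gut; the difference between genes was not tested. Sct had 95.7 and 111 RPKM (ratio 1.16, 0.833 to 1.61), Tph1 6.38 and 7.46 RPKM (ratio 1.17, 0.787 to 1.74) and Cck 39.3 and 36.7 RPKM (ratio 0.934, 0.655 to 1.33), with q from 0.728 to 0.913 in the authors' deposited table. For these 3 genes a 2-fold difference lies outside the interval.

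Because a share of the summed hormone level does not depend on the scale of a table, it can be set side by side for the 3 groups. The summed RPKM of the 10 genes was 235 in ISC and 548 in villus in the first table, and 472 in wild-type and 760 in Eed-null villus in the second. Gip made up 27.02% of the sum in ISC, 40.0% in wild-type villus and 50.5% in Eed-null villus. Ghrl made up 21.7% in ISC and 8.93% and 8.39% in the villus groups, and Sct 8.16%, 20.3% and 14.6%. Gcg made up 8.62% in ISC, 2.02% in wild-type and 0.339% in Eed-null villus, and Tac1 8.90%, 0.694% and 1.04%. No test was made of these shares. The sum in Eed-null villus was 1.61 times that in wild-type villus, and 1.33 times without Gip.

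**Figure D3:**
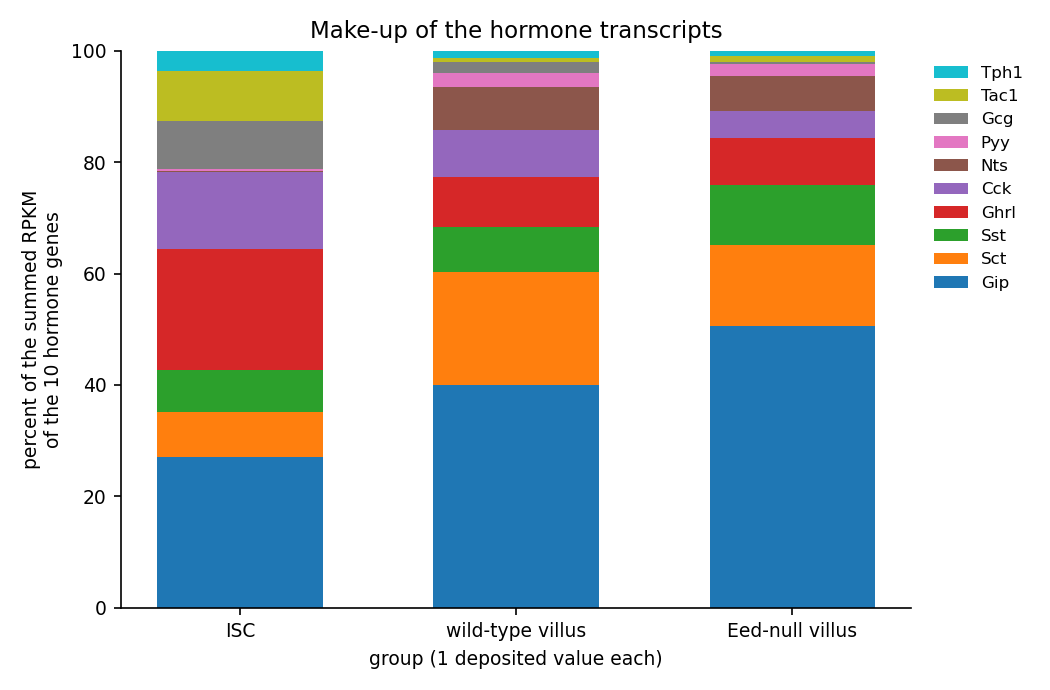
Share of each hormone gene in the summed RPKM of the 10 genes (percent, stacked to 100), 1 bar per group and no replicate error. Gip takes 27.02%, 40.0% and 50.5% from left to right, and the Gcg and Tac1 segments are widest in ISC.

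Set on 1 scale through the ratio of the 2 wild-type villus values, the groups order differently by gene. Sct, Gip, Sst, Nts and Pyy were lowest in ISC and highest in Eed-null villus, but for Sct, Nts and Pyy the step between the villus groups was not called. Gcg ran in the reverse order, with 20.3 RPKM in ISC, 11.1 RPKM in wild-type villus and 2.99 RPKM in Eed-null villus. Tac1 stood at 20.9 RPKM in ISC, 3.80 RPKM in wild-type villus and 9.20 RPKM in Eed-null villus. For Ghrl, Cck and Tph1 neither tested step was called. Eed-null villus and ISC were not compared by a test, since they stand in separately normalized tables.

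General enteroendocrine genes were read beside the hormones in both comparisons. Chga and Chgb, the granule proteins shared by most enteroendocrine cells, were called in favour of ISC. Chga went from 46.0 RPKM there to 31.3 RPKM in villus (q = 0.0258, authors' deposited table) and Chgb from 107 to 47.5 RPKM (q = 2.76e-06, authors' deposited table). Per unit of Chga, the Gip level was 1.38 in ISC, 7.01 in wild-type villus and 11.1 in Eed-null villus. The Gcg level per unit of Chga was 0.441, 0.354 and 0.0742. Per unit of Chgb, the Gip level was 0.591, 4.61 and 6.11, and the Gcg level 0.188, 0.233 and 0.0410. Whether Gcg so scaled was higher in ISC or in wild-type villus thus depends on the granule gene used, whereas it was lowest in Eed-null villus with both. Between the villus groups Chga had 26.9 and 34.7 RPKM (ratio 1.29, q = 0.394) and Chgb 40.9 and 62.9 RPKM (ratio 1.54, q = 0.0543) in the authors' deposited table, and neither was called. Of 18 genes of granules and prohormone processing, 16 were tested between villus and ISC. There villus was called higher for 3 genes and ISC for 7, a share close to the 62.8% called among all tested genes, with a median log2 ratio of -0.58. The largest differences were those of Cplx2, a regulator of granule fusion, 5.99-fold higher in ISC, of Vgf, a granin-like protein, 4.85-fold, and of Rab3c, a vesicle GTPase, 3.49-fold, while Resp18, a granule protein, was 4.24-fold higher in villus.

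A set of 3 enzymes that turn prohormones into hormones rose in Eed-null villus. Pcsk1, the convertase that cuts proglucagon into GLP-1 in L cells, went from 2.90 to 8.02 RPKM (2.77-fold, q = 2.17e-05 in the authors' deposited table). Cpe, the carboxypeptidase that trims the cut ends, went from 6.55 to 17.9 RPKM (2.73-fold, q = 2.29e-06 in the authors' deposited table). Pam, which amidates peptide ends and shares its locus entry with another gene, went from 5.89 to 13.8 RPKM (2.34-fold, q = 1.89e-05 in the authors' deposited table). These were the 3 called genes of 14 tested in that list, none was called lower (7.9% and 3.46% of all tested genes), and the median log2 ratio of the list was 0.70. In value 13 of the 14 were higher in Eed-null villus, and the summed level of the list was 1.62 times that in wild-type villus, beside 1.61 times for the hormone genes. Thus Gcg transcript was lower while transcript of the convertase that processes its product was higher.

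The transcription factors of the lineage were higher in ISC. Of 18 listed factors 16 were tested, and 15 were called higher in ISC and none higher in villus, with a median log2 ratio of -2.05. Among all tested genes 32.3% were called higher in ISC and 30.5% higher in villus. Neurog3 had 15.4 RPKM in ISC against 0.663 RPKM in villus. Mnx1, a homeodomain factor of the lineage, was 16.4-fold, Pax4, a paired factor, 11.4-fold and Nkx2-2, which shares its locus entry, 8.68-fold more abundant in ISC (authors' deposited table). Pax6 was the tested factor not called, at 0.779 RPKM in ISC against 0.387 RPKM in villus (q = 0.162 in the authors' deposited table). In Eed-null villus 2 of 14 tested factors were called higher and none lower, beside 7.9% and 3.46% of all tested genes. Only Pax6 remains when 1 RPKM is required in a group, and only Hhex among genes alone in their locus entry. In value 11 of the 14 were higher in Eed-null villus. Pax6, a paired-box activator of the glucagon gene in islet alpha cells, went from 0.333 to 4.26 RPKM, a 12.8-fold ratio with q = 5.41e-12 in the authors' deposited table, and shares its locus entry with another gene. Hhex, which somatostatin cells of the islet need, went from 0.0973 to 0.776 RPKM, a 7.97-fold ratio with q = 0.0018 in the authors' deposited table. Neurog3 had 0.570 and 1.20 RPKM in the villus groups (q = 0.153 in the authors' deposited table).

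**Figure D4:**
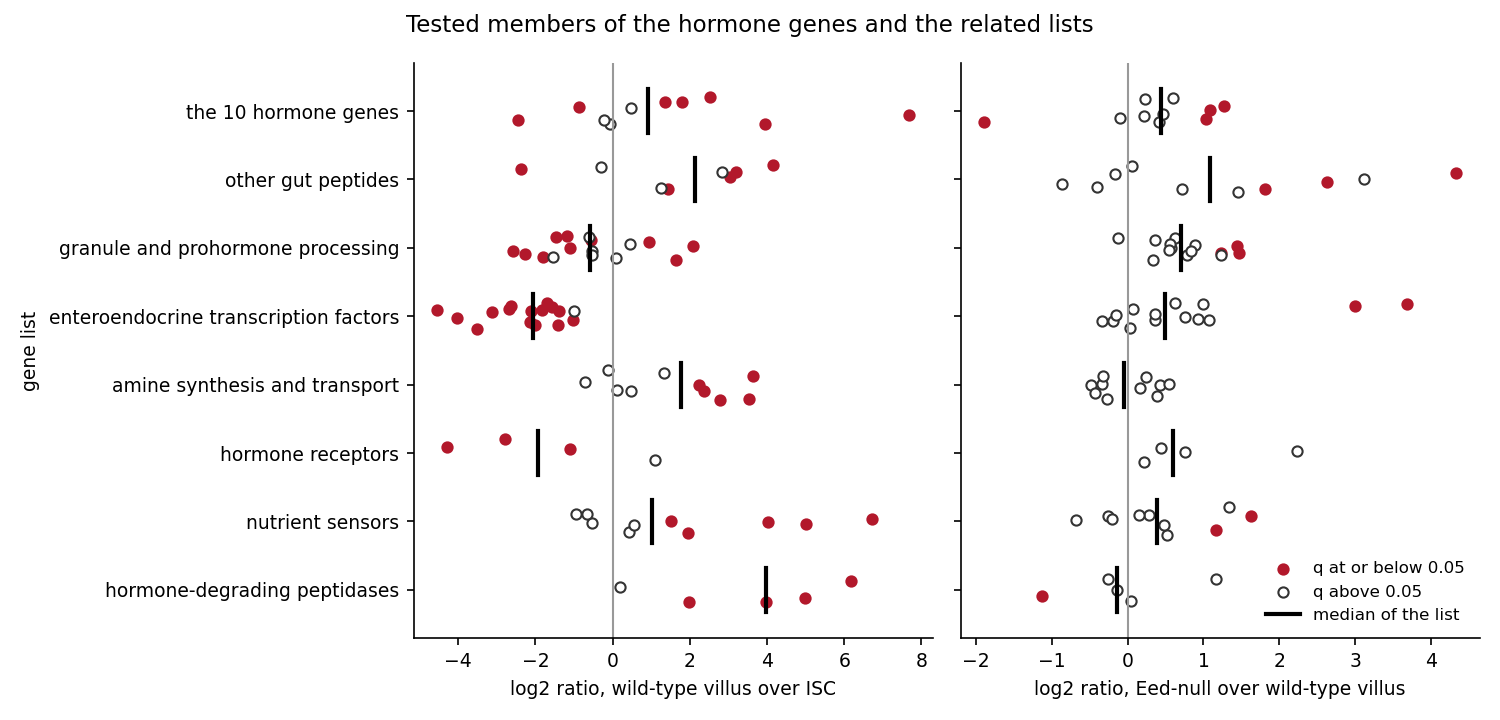
Log2 ratios of the tested genes of each list above 0 in both groups, with filled points where q was at or below 0.05 and a black bar at the median of the list. On the left, the transcription factors have a median of -2.05 and the hormone genes of 0.92, and on the right the called genes of the granule list (Pcsk1, Cpe, Pam) lie to the right of 0.

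Other gut peptides were mostly low. Of 18 listed, 13 in villus and 14 in ISC were under 1 RPKM, among them Gast, the gastrin gene, and Insl5, a hormone of colonic L cells. Guca2b, which encodes uroguanylin, reached 2131 RPKM in villus, 17.7-fold the 120 RPKM of ISC (authors' deposited table). Iapp, the amylin gene, and Nmu, the neuromedin U gene, were 9.24-fold and 8.22-fold higher in villus at low level, while Nucb2, the nesfatin precursor, was 5.16-fold lower there (authors' deposited table); Iapp shares its locus entry. Of 8 tested peptides 4 were called higher in villus and Nucb2 lower, a share close to the 62.8% called in either direction among all tested genes. Eed-null villus was called higher for 3 of 11 tested peptides and lower for none, beside 7.9% and 3.46% of all tested genes. Nmu rose from 0.4997 to 3.08 RPKM (6.17-fold, q = 0.00017), Nucb2 from 1.37 to 4.802 RPKM (3.50-fold, q = 0.00251) and the enkephalin precursor Penk from 0.0393 to 0.789 RPKM (20.1-fold, q = 0.0105) in the authors' deposited table.

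Genes of amine synthesis and transport were read beside Tph1. Ddc, the decarboxylase that completes serotonin synthesis, expressed by enterocytes too and sharing its locus entry, was 5.14-fold higher in villus, Gch1, which makes the cofactor of Tph1, 6.83-fold, and the monoamine oxidases Maoa and Maob 12.4-fold and 11.5-fold in the authors' deposited table. In all, 5 of the 10 genes were called higher in villus and none higher in ISC, beside 62.8% called in either direction among all tested genes. Pts, Spr, Qdpr, Slc18a1 and the vesicular transporter Slc18a2 were not called, as Tph1 was not. None of the 10 was called between the villus groups, beside 11.4% called in either direction among all tested genes. Their median log2 ratio there was -0.05. Peptidases that degrade the hormones were higher in villus in 4 of 5 cases, with Dpp4, which inactivates GLP-1 and GIP, at 18.3 RPKM in ISC against 287 RPKM in villus, and Mme, Ace and Fap likewise higher. Ace alone of the 5 was called lower in Eed-null villus, beside 3.46% of all tested genes. It went from 550 to 253 RPKM (q = 0.0125, authors' deposited table). In value 3 of the 5 peptidases were lower and 2 higher, with Dpp4 at 247 RPKM in wild-type and 207 RPKM in Eed-null villus.

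Receptors for these hormones were hardly detected in the epithelium. Of 27 receptor genes 4 were tested in each table, and in villus 26 were under 1 RPKM. Sort1, a neurotensin-binding sorting receptor with broad expression, was the one above that level (37.9 RPKM in ISC, 17.6 RPKM in villus; q = 9.45e-06 in the authors' deposited table). The serotonin receptor Htr4 had 1.67 RPKM in ISC against 0.0859 RPKM in villus, and Gipr 0.626 and 0.0913 RPKM (q = 4.92e-14 and 0.00398 in the authors' deposited table). None of the 4 tested receptors was called between the villus groups, beside 11.4% called in either direction among all tested genes. Of the nutrient sensors, 5 of 10 tested were called higher in villus and none higher in ISC, beside 30.5% and 32.3% of all tested genes. The largest ratios were those of the carriers Slc15a1 and Slc5a1, which enterocytes share, at 105-fold and 31.96-fold. The fatty acid receptor Ffar3 followed at 16.2-fold and the channel Trpm5 at 3.87-fold in the authors' deposited table. In Eed-null villus 2 of 10 tested sensors were called higher and none lower, beside 7.9% and 3.46% of all tested genes. Abcc8, a subunit of the ATP-sensitive potassium channel, went from 0.250 to 0.772 RPKM and the fatty acid receptor Ffar4 from 1.61 to 3.60 RPKM (q = 0.00217 and 0.0338 in the authors' deposited table).

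Markers of gut region and of other hormone-making cells were read beside these results. The 5 ileal genes found were all called higher in villus than in ISC, beside 30.5% of all tested genes. Their summed levels were 2277 and 12.2 RPKM, and both groups were labelled as proximal. Genes of the proximal small intestine went the same way, with 5 of 7 called higher in villus and none lower. They summed to 10526 RPKM in villus and 288 RPKM in ISC. All 9 tested enterocyte genes were called higher in villus too. In Eed-null villus the ileal sum was 604 against 1960 RPKM in wild-type villus, with Fabp6, Slc10a2 and Slc51a called lower, beside the lower Gcg. Among 7 genes of the proximal small intestine, Pdx1, a homeodomain factor sharing its locus entry with another gene, went from 9.46 to 20.3 RPKM (q = 0.0195) and Cybrd1, a duodenal iron reductase, from 6.64 to 16.7 RPKM (q = 8.02e-06), while Lct, the lactase gene, went from 328 to 168 RPKM (q = 0.0165) in the authors' deposited table. The part of region in the results for Gcg, Gip, Nts and Pyy was not tested. Enteric neuron and glia genes, a source of Tac1 and Sst, summed to 2.48 RPKM over 14 genes in ISC and 1.74 RPKM in villus. Of the 14, 3 were listed at 0 in ISC and 4 in each villus group, Nos1 in all of them. In Eed-null villus the sum of the 14 was 6.05 against 1.49 RPKM, of which Ret gave 3.50 and 0.419 RPKM (q = 1.4e-11, authors' deposited table). All 3 tested genes of this list had the higher value in Eed-null villus, and Ret alone was called. The part of neurons and glia in the Tac1 and Sst levels was not tested. Mast cells also make Tph1. Their 11 listed genes summed to 9.40 RPKM in ISC and 6.52 RPKM in villus, and to 5.61 RPKM in wild-type and 6.03 RPKM in Eed-null villus in the second table. Kit gave 7.63 RPKM of the ISC sum and 3.09 RPKM of the Eed-null sum, and the protease gene Cpa3 was at or below 0.0632 RPKM in all groups. Of the 4 mast cell genes tested between the villus groups, 1 had the higher and 3 the lower value in Eed-null villus, and none was called. The part of mast cells in the Tph1 level was not tested. The 6 islet genes summed to 10.8 RPKM in wild-type and 23.1 RPKM in Eed-null villus, most of it Pdx1. All 3 tested islet genes had the higher value in Eed-null villus, and Pdx1 alone was called. Iapp went from 1.32 to 2.17 RPKM and Ppy from 0 to 0.490 RPKM, while Ins1 was listed at 0 in all groups. The part of islet-like transcripts was not tested. Goblet cell genes were called higher in Eed-null villus in 3 of 7 cases and Paneth cell genes in 2 of 7, with none lower (7.9% and 3.46% of all tested genes), beside the higher Gip, Sst and Tac1, and their part was not tested. The 7 Paneth cell genes, of crypt origin, summed to 8132 RPKM in the villus libraries, so these libraries were not free of crypt transcripts. In ISC the 7 genes summed to 6584 RPKM, but 3 of them (Lyz1, Defa17 and Defa24) carry the authors' status HIDATA and were not tested. Their listed 0 in ISC cannot be read as absence. The ISC sum thus leaves them out and cannot be compared with the villus sum. All 4 tested genes were called higher in ISC, beside 32.3% of all tested genes, so Paneth cell transcripts were present in the sorted cells too.

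The genes nearest to each hormone gene in the plane of the 2 log2 ratios were sought among 9961 genes tested in both tables, as a description over 3 groups whose 2 ratios share wild-type villus. Gcg was nearest to Bmp3, which encodes a secreted antagonist of bone morphogenetic proteins, at a distance of 0.18 log2 units. Gip lay nearest to Ctsl, the cathepsin L gene, at 0.03, and Sst to Plekhn1 at 0.02. Nts was nearest to Duoxa2, the maturation factor of an epithelial oxidase, at 0.09, and Tac1 to Mfge8, a secreted phagocytosis bridge, at 0.08. Among the hormone genes themselves the nearest pairs were Ghrl and Tph1, at 0.41, and Gip and Sst, at 0.44, and the farthest were Nts and Tac1, at 10.2.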

How the data were processed

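RNA-seq of 9 libraries (3 per group, called biological replicates in the labels) was analysed; the other 14 libraries of the series were not used here. Libraries were made with TruSeq V2 (unstranded) and sequenced single-end to 75 bp, per the labels' protocols. The authors deposited 1 RPKM value per group and gene, with replicates pooled. RPKM is named in the headers of the first table only, and for the second it was inferred from the constant factor between the wild-type villus values (1.16192 to 1.16194 over 10353 genes). The p-value and q-value columns are the authors' deposited results, and q equals a Benjamini-Hochberg adjustment over tested genes within 2.12e-06. Build mm9 and the tools Bowtie, TopHat2 2.0.6, Cuffdiff and Cufflinks 2.0.1 are listed without roles, per the submitters' processing notes. Which gene models were used is not stated there. Loci of the 10 genes are on mm9, and promoter windows come from RefSeq on GRCm38.p6, matched by symbol for all 10.

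Ratios carry no pseudocount. The SE assumes a two-sided normal test; over genes at 5 to 200 RPKM in both groups its median was 0.24 to 0.25 whatever the size of the ratio (up to 1.5 in log2). It reflects the authors' variance model, not measured spread. The adjustment and distance functions were tested on simulated data. The hormone genes, the 7 related lists and 13 marker lists were chosen with earlier results of these data known. The rule for named genes gave all hormone genes, Eed, up to 4 called genes per related list and comparison with the largest ratio, the 3 highest genes per marker list and the 2 nearest genes per hormone gene, of which the text prints a part; Chga, Chgb, Gast, Pax6 (villus against ISC), Insl5, Pts, Spr, Qdpr, Slc18a1, Slc18a2, Ret, Nos1, Cpa3, Ins1, Slc10a2, Pdx1, Cybrd1, Sis and Lgr5 were added after values were seen. Python 3.11.15, pandas 2.3.3 and scipy 1.17.1 were used. One entry per table names no gene and was left out.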

Additional observations from a re-analysis of the deposited data

How the results depend on the processing

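The calls of the 10 hormone genes were recomputed with q at or below 0.01 or 0.1, with a 2-fold minimum, with 1 RPKM required in a group, and with the adjustment redone over genes at 1 RPKM or more or over genes alone in their locus entry. Of 120 such calls 119 were as reported. The exception was Gcg between villus and ISC, which a 2-fold minimum removes, leaving 1 hormone gene higher in ISC. Over the 7 related lists, the genes called lower in Eed-null villus numbered 0 with q at or below 0.01, against 1 (Ace) as reported. In single lists, counts of 5 or fewer also moved. In Eed-null villus the factors called higher went from 2 to 1 with 1 RPKM required or over genes alone in their locus entry, the nutrient sensors from 2 to 1 with 1 RPKM required or q at or below 0.01, and the granule genes from 3 to 5 with q at or below 0.1. The calls of Hhex, Penk and Abcc8 are lost when 1 RPKM is required. With q at or below 0.1, 1 peptidase became called higher in Eed-null villus, and between villus and ISC 1 receptor became called higher in villus and 1 nutrient sensor higher in ISC. No called hormone gene changed direction with a pseudocount of 1 or 0.1 or with centring on the median log2 ratio. The ratio of Nts between villus and ISC moved from 7.69 to 5.16 and 7.12 in log2 with these pseudocounts, and that of Pyy from 3.96 to 2.97 with a pseudocount of 1.

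No paired analysis was possible because the tables hold 1 pooled value per group, and leaving out replicates was not run for the same reason. The depth of the libraries is unknown, so the low ISC values of Nts and Pyy carry no counting interval.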
